A study of Mus musculus with 2 samples.

Results

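The brown adipose precursor cluster bAPC 1, which the authors' cell table also calls early preadipocytes B1, was described here from single-cell RNA sequencing of cultured brown preadipocytes. Stromal vascular cells of brown and white fat came from male and female C57/BL6 neonates, of postnatal day 0 in the labels and P1 in the methods. They were grown to confluency and were sequenced as 1 pooled library per depot. The members of bAPC 1 were the brown cells with that label in the authors' table of barcodes and clusters, whose available part holds 1999 labelled brown precursor cells. The whole table has 5958 rows, and whether the 1999 at hand are a random part of it was not tested. bAPC 1 had 581 of these 1999 cells (29.1%, 95% Clopper-Pearson interval 27.1 to 31.1, which covers counting error only and need not hold for the whole table), and the series holds 12270 cells in all. The comparison was with the other 1418 labelled brown precursor cells, which are 415 bAPC 2, 171 bAPC 3, 142 bAPC 4, 115 bAPC 5, 296 committed adipocyte precursors (bCAPs) and 279 fibro-adipogenic progenitor-like cells (bFAPLs). All groups share the strain, the age, the mixed sexes and the culture, and a culture to confluency is a model of precursors outside the tissue.

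The counts of unique molecular identifiers (UMIs), each standing for an RNA molecule captured in a droplet, came to 17677652 in bAPC 1 and 40103050 in the other cells. A cell of bAPC 1 had 29000 UMIs at the median (range 11249 to 59652) and 6059 genes, against 26143 UMIs and 5658 genes in the others. Levels are given as CPM, the UMIs of a gene as parts per 1e6 of all UMIs summed over a cluster, with an exact 95% Poisson interval, and ratios with a conditional binomial interval, which both cover counting error only. With 1 library and no replicate there is no test, p-value or standard error, and cells are not replicates. The clusters were made by the authors from these same counts, so every difference between clusters below describes the cluster and tests nothing. The 2 libraries had 9 barcodes in common, of which 1 belonged to a cell of bAPC 1.

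Preadipocytes are fibroblast-like cells that can become fat cells. They carry platelet-derived growth factor receptors on their surface, and commitment turns on the nuclear receptor Pparg and then lipid genes such as Fabp4. Before commitment, inhibitors of differentiation such as Dlk1 and Zfp521 are known to hold these cells back, and a tense actin cytoskeleton, which reports through the factors YAP, TAZ and the serum response factor, is known to oppose fat cell formation. Semaphorins, slits, netrins and ephrins, first described as guidance cues of growing axons, are made by many mesenchymal cells and act on cell shape and migration.

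bAPC 1 had higher levels of Sema3a, Nav3, Edil3 and Tenm4 and lower levels of contractile genes than the other brown precursors. Its higher genes were mostly long, and the medians of the guidance gene lists moved toward 0 once ratios were set against genes of similar length. Among 8996 genes with at least 10 CPM in either sum, 209 (2.32%) were at least 1.5 times higher in bAPC 1 than in the other precursor cells. At least 1.5 times lower were 138 (1.53%). These shares are the background for the counts of list members below. The split turned to 147 higher and 209 lower without bAPC 2 among the comparison cells. With ratios centred within class of gene span it was 74 higher and 164 lower. The median log2 ratio of all genes was 0.05. bAPC 1 had the highest level of the 7 brown clusters for 1252 genes (13.9%) and the lowest for 577 (6.41%). A gap of at least 1.5 times to the next cluster was seen for 7 genes (0.0778%), namely Tenm4, Edil3, Apba1, Enox1, Mitf, Iqgap2 and Sema3a, of which Mitf and Iqgap2 were named after their values were seen. The other higher genes of bAPC 1 thus had at least 1 cluster within 1.5 times of its level or above it. No such count is given here for the other clusters.

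**Figure D1:**
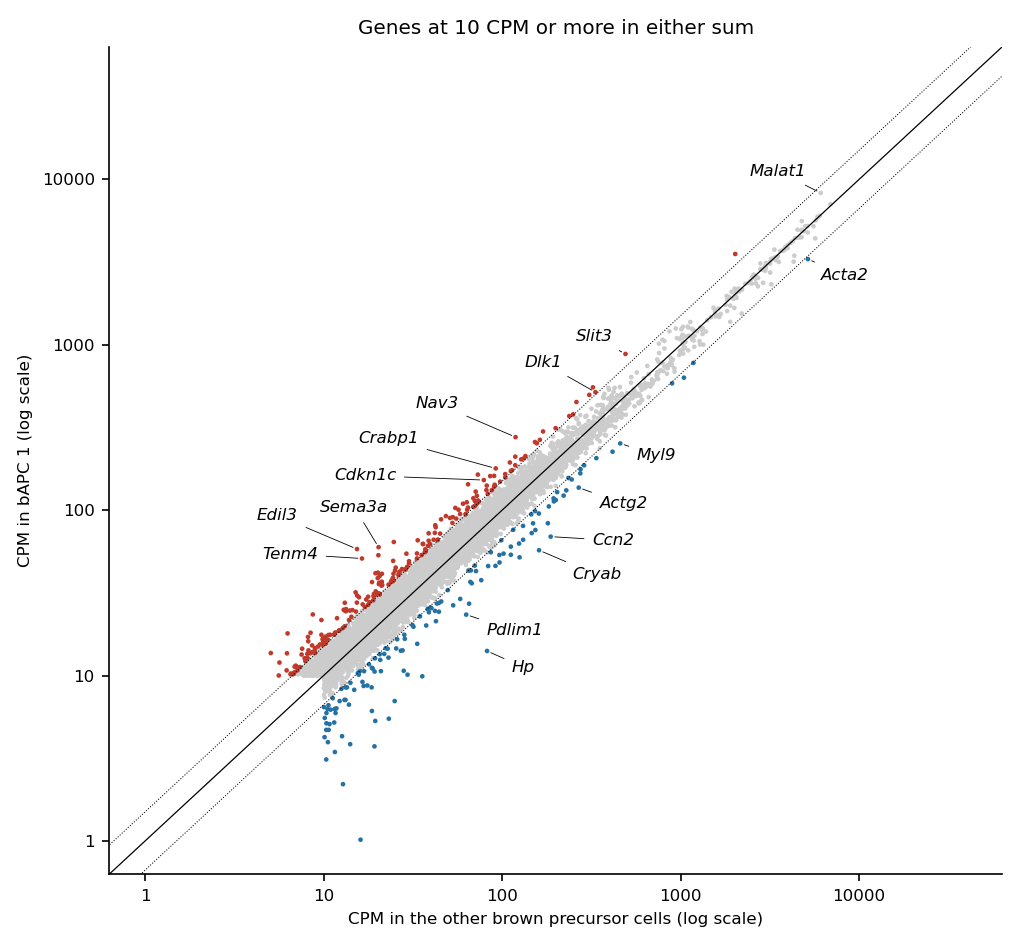
Summed level of each of the 8996 genes in bAPC 1 (vertical axis, CPM, log scale) against the other 1418 brown precursor cells (horizontal axis, CPM, log scale). Red and blue points are the 209 and 138 genes at least 1.5 times higher or lower, the solid line marks equal levels, the dotted lines mark 1.5 times, and most genes lie between the dotted lines.

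Both genes by which the cluster is named were highest in it. Sema3a, a secreted semaphorin that repels growing axons (ENSMUSG00000028883, GRCm38, chromosome 5, 13125414 to 13602565, plus strand), was at 59.7 CPM (56.2 to 63.5) in bAPC 1. It was at 39.3 in bAPC 5, 37.7 in bAPC 3, 20.9 in bAPC 2, 20.8 in bAPC 4, 14.8 in bCAPs and 6.90 in bFAPLs. The interval of bAPC 1 lay above those of all 6 other clusters, while bAPC 5 and bAPC 3 overlapped each other, as did bAPC 2 and bAPC 4. Against all other precursors together, at 20.3 CPM, the level was 2.94 times higher (log2 ratio 1.56, 1.42 to 1.69), and against bAPC 5 alone 1.52 times.

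Nav3, a large protein of the neuron navigator family that binds microtubules (ENSMUSG00000020181, chromosome 10, 109681259 to 110456204, minus strand), was at 276.5 CPM (268.8 to 284.4) in bAPC 1 and 118.9 in the other precursors, a ratio of 2.33 (log2 1.22, 1.16 to 1.28). It was at 242.5 CPM (225.8 to 260.1) in bAPC 5 and 224.1 in bAPC 3, with bAPC 4 at 122.1, bCAPs at 116.4, bAPC 2 at 96.1 and bFAPLs at 42.1. The gap to bAPC 5 was 1.14 times, so Nav3 marked bAPC 1, bAPC 5 and bAPC 3 together more than it set bAPC 1 apart. Neither gene was found in every cell of the cluster. With all cells thinned to 10000 UMIs, Sema3a had at least 1 UMI in 32.4% of bAPC 1 cells (28.6 to 36.3), between 5.02% (bFAPLs) and 22.6% (bAPC 5) of the cells in the other clusters, and in 1 of 27 cells that the authors labelled myeloid (3.70%). Nav3 had a UMI in 71.8% of thinned bAPC 1 cells, in 63.2% of bAPC 3, 60.9% of bAPC 5, 22.2% of bFAPLs and in 2 of 27 myeloid cells (7.41%). Without thinning the shares in bAPC 1 were 51.3% for Sema3a and 87.3% for Nav3, at 29000 UMIs per cell, and the myeloid cells had the same counts at a median of 29269 UMIs. Nav3, unlike Sema3a, was also found in 19 of 22 cells labelled glial (86.4%).

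**Figure D2:**
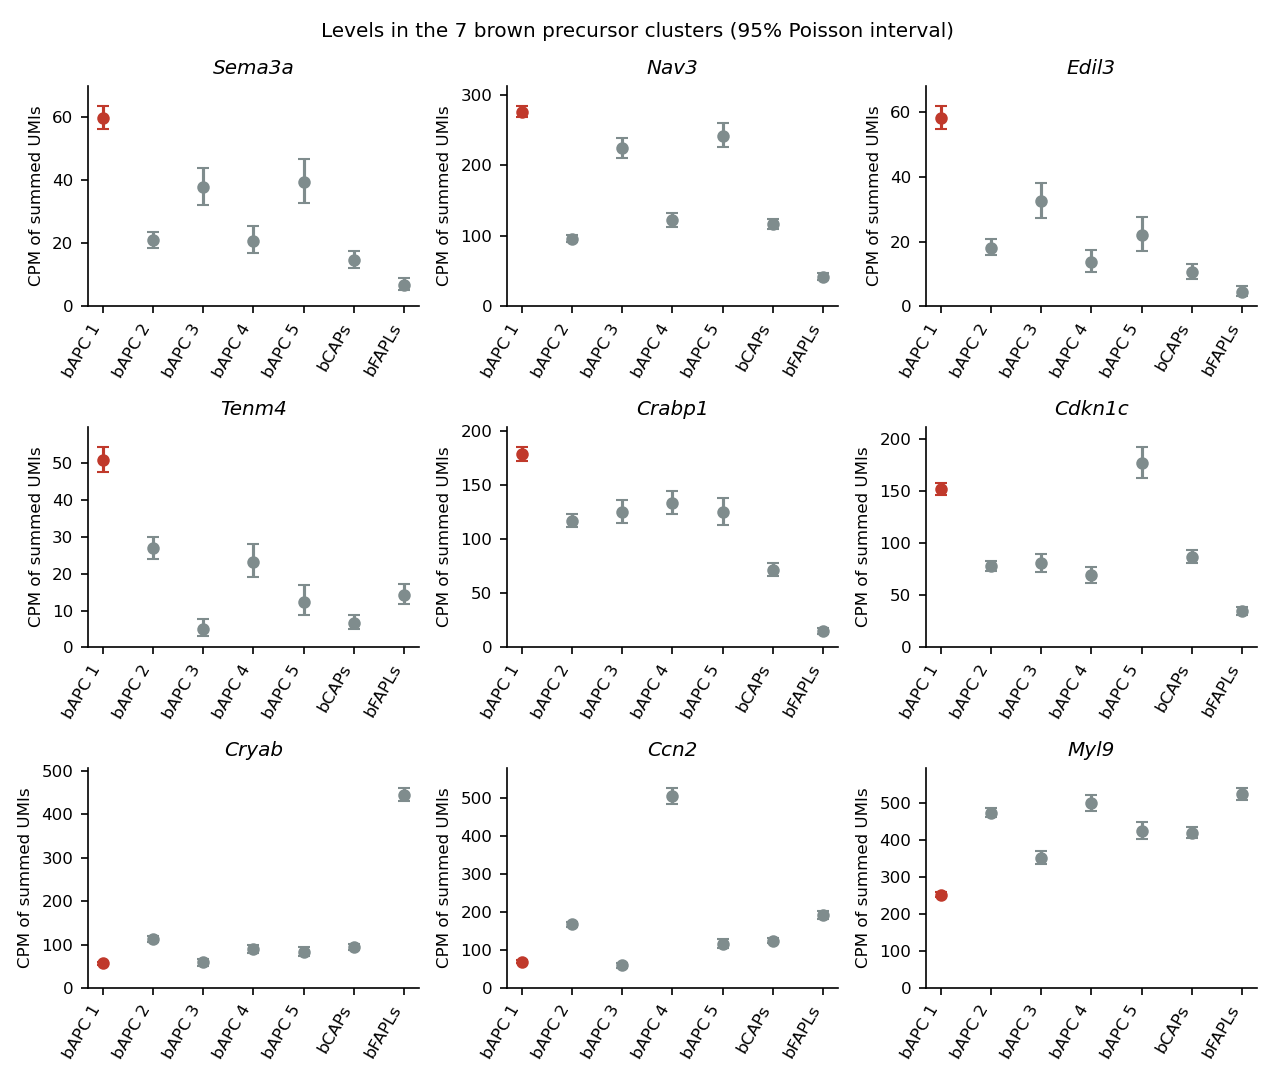
Levels of 9 genes (CPM of summed UMIs, vertical axes from 0) in the 7 brown precursor clusters, with bAPC 1 in red and exact 95% Poisson intervals for counting error. Sema3a, Nav3, Edil3, Tenm4 and Crabp1 were highest in bAPC 1, Cdkn1c was higher in bAPC 5, and Myl9 was lowest in bAPC 1, while for Cryab bAPC 1 and bAPC 3 overlapped.

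Edil3, Tenm4, Sema3a, Gas7 and Enox1 had the largest ratios. Edil3, a secreted integrin ligand, was at 58.2 CPM in bAPC 1 and 15.4 in the other precursors (3.78 times, log2 1.92, 1.77 to 2.07). By cluster it ran from 32.4 in bAPC 3 down to 4.51 in bFAPLs, all below bAPC 1. Tenm4, a teneurin that spans the membrane and takes part in cell-to-cell adhesion, was at 51.0 CPM against 16.4 (3.11 times), and its next cluster was not bAPC 5 or bAPC 3 but bAPC 2, at 26.9, with bAPC 3 lowest at 5.02. Edil3 and Tenm4 thus set different neighbours apart from bAPC 1. Gas7, a regulator of actin and membrane shape, was 2.63 times higher and Enox1, a cell-surface oxidase, 2.60 times higher.

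The other leading genes were Adgrl3, a latrophilin receptor (log2 1.17), Dlgap1, a scaffold protein of synapses (1.15), Nrg1, the ligand of ErbB receptors (0.97), Crabp1, which binds retinoic acid (0.96), Cdkn1c, an imprinted inhibitor of the cell cycle (0.95), Maf, a leucine zipper transcription factor (0.94), Pcsk5, a proprotein convertase (0.93), Cdon, a co-receptor of hedgehog (0.92), and Chst11, a chondroitin sulfotransferase (0.91). Of the 15 leading genes, 13 were highest in bAPC 1, while Cdkn1c and Nrg1 were higher in bAPC 5, at 177.2 CPM against 152.1 for Cdkn1c. Among the 13, Adgrl3 in bAPC 1 (158.2 to 170.2 CPM) overlapped bAPC 5 (147.2 to 175.2). Maf in bAPC 1 was within counting error of bAPC 3 (log2 ratio 0.16, -0.01 to 0.34). bAPC 5 was the highest other cluster for 6 of the 15. Edil3 was also abundant outside the precursors, with a UMI in 19 of 22 cells labelled glial (86.4%). It had a UMI in 10 of 27 myeloid cells (37.0%) against 44.4% of bAPC 1 cells, and after thinning in 5 of 27 (18.5%, interval up to 38.1) against 24.6% (21.2 to 28.3) in bAPC 1, shares whose intervals overlapped. After thinning Edil3 had a UMI in 2.87% of bFAPLs (1.25 to 5.57) and 5.74% of bCAPs (3.38 to 9.04). Both shares lay below the interval of bAPC 1, while the interval of the myeloid cells (6.3 to 38.1) overlapped that of bCAPs. The source of the Edil3 UMIs in myeloid cells was not tested. The 6 glial marker genes came to 2.32 CPM in bAPC 1 and 2.37 in the other precursors, with 2 of them at 0 in bAPC 1, and the interval of Edil3 did not overlap between bAPC 1 and any other precursor cluster.

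Guidance genes had ratios mostly above 0, but they are long, and long genes as a whole were higher in bAPC 1. Of 18 slit, robo, netrin and ephrin genes at 10 CPM or more, of 25 listed, 6 were at least 1.5 times higher and none lower. Their median log2 ratio was 0.32. For all genes the values were 2.32% higher, 1.53% lower and a median of 0.05. Of these 18 genes 13 span 100 kb or more, and with each ratio centred on the median of genes of similar span (5 classes, chosen after seeing the data) the median was 0.16, with 1 gene higher (Dcc) and 1 lower (Epha7). Slit3, a ligand of Robo receptors, was at 879.9 CPM in bAPC 1, 752.5 in bAPC 4, 722.8 in bAPC 3, 564.8 in bFAPLs, 428.3 in bAPC 2, 317.8 in bCAPs and 301.0 in bAPC 5. This order differed from that of Nav3, since bAPC 5, next to bAPC 1 for Nav3, was at the low end for Slit3, where its interval overlapped that of bCAPs. Slit2 was at 497.6 CPM in bAPC 1 and 486.6 in bAPC 4, levels whose intervals overlapped, and its ratio to the other precursors was 1.62. Efna5, a membrane-anchored ephrin, was 1.78 times higher, at 210.7 CPM against 118.5. The remaining higher members were the netrin Ntn1 (log2 0.75) and the receptors Robo2 (0.78) and Dcc (1.13), which stayed between 13.6 and 24.9 CPM. Robo1, the receptor with more UMIs, was at 70.9 CPM against 49.5 (log2 0.52).

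Among 11 semaphorin, neuropilin and plexin genes above the floor, of 23 listed, 3 were higher and none lower (median 0.11). Of all genes 2.32% were higher and 1.53% lower. After centring by span the median was -0.01 and Sema3a alone was higher, beside 74 higher and 164 lower of all 8996 genes. Apart from Sema3a, the genes higher before centring were Sema5a, a membrane semaphorin (log2 0.66), and Plxna4, a plexin that signals for class 3 semaphorins (0.81). The neuropilins, which bind Sema3a, differed little, with log2 ratios of 0.11 for Nrp1 and 0.24 for Nrp2. Inside the cell, 5 of 19 navigators and guanine nucleotide exchange factors were higher and none lower (2.32% and 1.53% of all genes), with a median of 0.39. The 5 were Nav3, Dock1, Dock11, Elmo1 and Arhgef3. Dock1 and Elmo1, which act as a pair to activate Rac, had log2 ratios of 0.65 and 0.74. Of the 19 genes 18 span 100 kb or more, and after centring by span the median was 0.03, with Nav3 higher and Nav2 lower. Nav1 was just under the 1.5-fold limit at 0.56, and Nav2 had the opposite sign at -0.53.

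**Figure D3:**
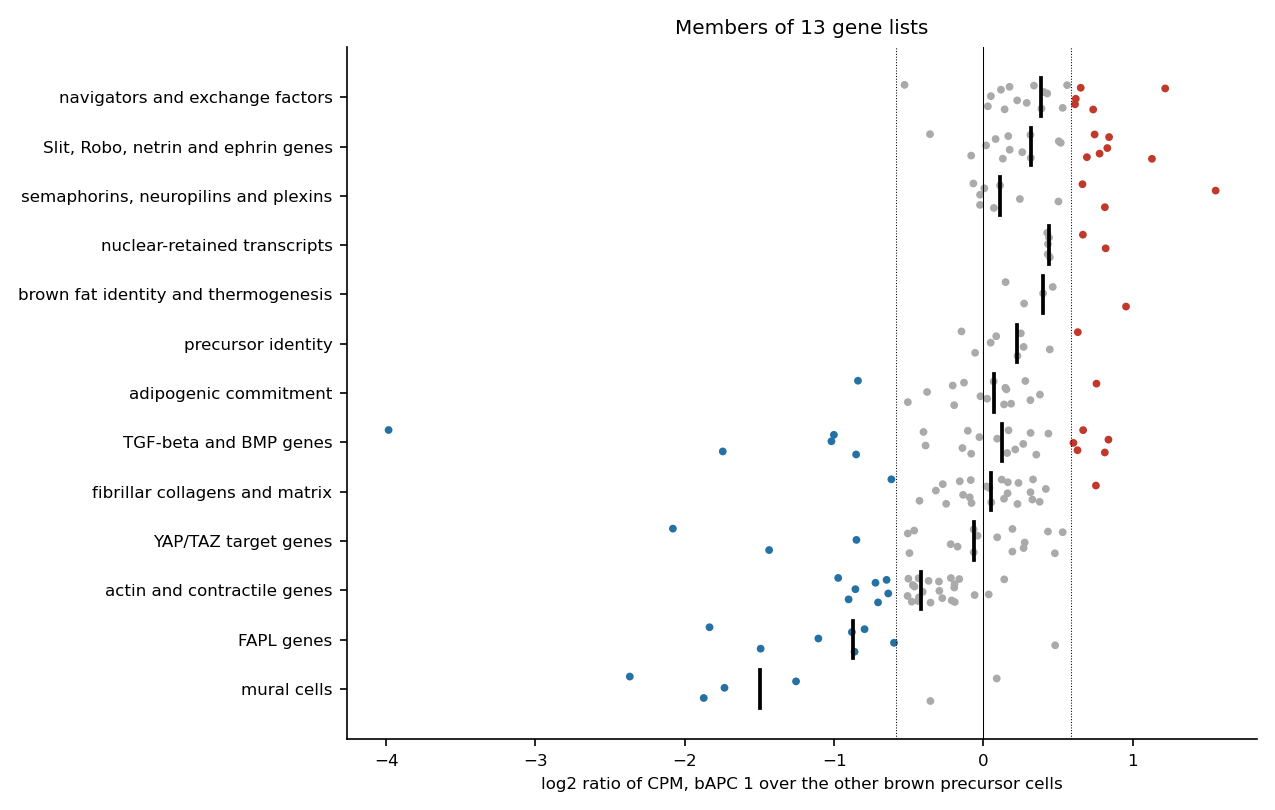
log2 ratio of CPM in bAPC 1 over the other brown precursor cells (horizontal axis) for each member at 10 CPM or more of 13 gene lists, with the median as a black bar. Red and blue points are past 1.5 times (dotted lines), and, before any centring by gene span, the median lay at 0.39 for the navigator and exchange factor list, at -0.42 for the actin and contractile list and at -0.87 for the FAPL list.

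Contractile genes were low in bAPC 1. All 30 listed actin and contractile genes passed 10 CPM, and 2 of them (Myh9 and Cnn3) had a ratio above 0. Of the 30, 7 were at least 1.5 times lower and none higher (1.53% and 2.32% of all genes). The median log2 ratio was -0.42. bAPC 1 had the lowest level of the 7 clusters for 17 of the 30, while it was lowest for 6.41% of all genes. The summed level was 27862 CPM in bAPC 1, against 33031 to 41896 in the other 6 clusters. The smooth muscle isoforms had the largest differences. Actg2, smooth muscle gamma-actin, was at 136.9 CPM against 268.6 (log2 -0.97), Lmod1, which nucleates actin filaments, had -0.90, Myl9, the regulatory light chain of myosin, -0.86, Tpm2, a tropomyosin, -0.72, Cnn1, a calponin, -0.71, and Csrp1 -0.64. Acta2, smooth muscle alpha-actin, was at 3294 CPM in bAPC 1, 4198 in bCAPs, 4607 in bAPC 3, 4816 in bAPC 5, 5500 in bFAPLs, 5685 in bAPC 2 and 5732 in bAPC 4. Myl9 was at 253.3 CPM in bAPC 1 and between 353.5 (bAPC 3) and 524.8 (bFAPLs) in the others. For Acta2 and Myl9 the interval of bAPC 1 lay below those of all other clusters, while Actg2 was lower still in bCAPs, at 122.2 CPM. The non-muscle forms differed less, with Actb at -0.37, Actg1 at -0.47 and Myh9, non-muscle myosin, at 0.14.

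Serum response factor binds the CArG box, and promoters were read to see which of these genes hold it. The box was searched only as an exact match of CC, 6 bases of A or T, and GG. In the 250 bases before the start, taken from RefSeq promoter sequences (GRCm38.p6) that matched 27 of the 30 genes, 5 genes held the box. Variant boxes and boxes outside this window were not searched, so a gene without a match here may still hold one. Counted by promoter, it stood in 5 of 32 promoters of these genes (15.6%) and in 1.47% of all 32851 promoters. Of the 7 genes that were at least 1.5 times lower, 6 had a promoter sequence, and 1 of these, Myl9, had an exact match in the window. That is 16.7%, beside 18.5% of the 27 genes. With counts this small, whether the letters and the size of the difference go together was not tested. The capitals mark the box, with 10 bases on either side, and the 4 sequences are shown so that the letters and the ratios can be read side by side. Their likeness follows from the search for the box. The window of Myl6, the remaining gene, lies inside longer transcripts of that gene and is left out.
Myl9 (chr2:156775293-156775322, plus strand): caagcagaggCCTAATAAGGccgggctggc
Cnn2 (chr10:79988534-79988563, plus strand): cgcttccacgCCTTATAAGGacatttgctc
Actg1 (chr11:120348566-120348595, minus strand): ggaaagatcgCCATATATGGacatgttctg
Vcl (chr14:20929161-20929190, plus strand): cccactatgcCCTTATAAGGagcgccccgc
The log2 ratios of these genes were -0.86 for Myl9, -0.44 for Cnn2, -0.47 for Actg1 and -0.21 for Vcl. The other motif searched was GGAATG on either strand, the core bound by TEAD factors, the partners of YAP and TAZ. It stood in 9 of the 32 promoters of contractile genes (28.1%), in 7 of 18 promoters of YAP/TAZ target genes (38.9%) and in 12.6% of all promoters. Both motifs were chosen after the ratios had been seen, the last letters of a CArG box can also be the first of GGAATG, and a match describes letters, not binding.

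Of the YAP/TAZ target genes, 3 of 19 were lower and none higher (1.53% and 2.32% of all genes). The median was -0.06 and 8 ratios were above 0, so the members went both ways. After centring by span the median was -0.16, with 3 lower and none higher. For Ccn2, a secreted matrix protein, bAPC 1 had 69.2 CPM and bAPC 4 505.5 (log2 -1.43 against all others), Ankrd1 was at 5.49 against 23.2 (-2.08), and Crim1 at 53.6 against 96.6 (-0.85). bAPC 4 was the highest cluster for all 3, and for Ccn2 the interval of bAPC 3 (53.0 to 67.7) overlapped that of bAPC 1 (65.4 to 73.2). For Crim1 the interval of bAPC 1 (50.2 to 57.1) overlapped those of bAPC 2, bAPC 3 and bAPC 5. For Ankrd1 it (4.45 to 6.69) overlapped those of bAPC 5 and bCAPs. Other members had ratios above 0, such as Rbms3 at 0.48 and Amotl1 at 0.43.

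FAPL genes were lower than in the comparison cells, which include the bFAPLs, but did not set bAPC 1 apart from bAPC 2, bAPC 3 and bAPC 5. The summed level of the list was 539.9 CPM in bAPC 1, 526.8 in bAPC 2, 451.2 in bAPC 3, 560.0 in bAPC 5, 625.9 in bAPC 4, 664.1 in bCAPs and 2879 in bFAPLs. Of 8 members above the floor, 7 were lower and none higher (1.53% and 2.32% of all genes), with a median of -0.87. Yet bAPC 1 was the lowest cluster for Cryab alone, and there within counting error of bAPC 3. Cryab, a small heat shock protein, was at 57.2 CPM in bAPC 1, 59.3 in bAPC 3, 84.2 in bAPC 5, 89.7 in bAPC 4, 95.3 in bCAPs, 113.0 in bAPC 2 and 445.5 in bFAPLs. The basement membrane collagens Col4a1 (log2 -0.88) and Col4a2 (-0.80) and the transcription factors Meox2 (-1.11) and Nr2f2 (-0.86) were highest in bFAPLs too, and Shox2 was the exception at 0.48. Of 7 mural marker genes, 6 passed the floor and 4 were lower (Rgs5, Abcc9, Myh11 and Mcam, median of the 6 -1.49), with none at 0 in bAPC 1. Their summed level was 63.5 CPM in bAPC 1, 53.9 in bAPC 3 and 277.3 in bFAPLs, the most abundant being Notch3 over all precursors. Myh11 is a contractile gene as well, and the part of mural cells in the contractile ratios was not tested.

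The 15 genes with the lowest ratios had their highest level in bFAPLs (6 genes), bCAPs (5), bAPC 4 (3) or bAPC 3 (1), and 7 of the 15 were lowest in bAPC 1. Hp, haptoglobin, was at 14.1 CPM in bAPC 1, between 2.79 and 18.6 in the other bAPC clusters, 54.7 in bFAPLs and 308.4 in bCAPs, so the 5.84-fold difference lay with the bCAPs and bFAPLs. Pdlim1, which links actin filaments, was lowest in bAPC 1 at 23.4 CPM against 62.9 (log2 -1.43). The same held for Lxn, a carboxypeptidase inhibitor (-1.27), Adm, the peptide adrenomedullin (-1.26), Tm4sf1 (-1.11), Ckb, the brain creatine kinase (-1.01), and Inhba, an activin subunit (48.3 CPM against 96.7). Ccn5, Pde3a, Fst, Sorbs2, Pde1a and Abi3bp had log2 ratios from -1.06 to -0.995, and each was lower still in at least 1 other cluster. Of the 7 genes lowest in bAPC 1, the intervals of Tm4sf1 and Inhba lay below those of all other clusters, while Cryab and Adm overlapped bAPC 3, Lxn overlapped bAPC 4, and Ckb and Pdlim1 overlapped bAPC 5.

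Of 14 listed precursor identity genes, 9 were above the floor, and genes such as Cd34 (4.53 CPM in bAPC 1) were under it. The 9 had a median log2 ratio of 0.23 against the other precursors together, and none was lower. Single clusters differed more, as for F3, at 636.9 CPM in bAPC 1 and 220.5 in bAPC 5. Pdgfra was at 92.2 CPM against 78.7 and Pdgfrb at 153.6 against 144.8. Dlk1, the imprinted inhibitor of adipogenesis, was 1.55 times higher, at 516.6 CPM, but bAPC 5 was at 1021 CPM and bCAPs at 135.9. Of 17 adipogenic genes 1 was higher and 1 lower (median 0.07), beside 2.32% and 1.53% of all genes. Zfp521, a repressor of early commitment, was the higher one at 258.2 CPM against 152.8 and was highest in bAPC 1, with 227.8 in bAPC 3 and 227.3 in bAPC 5. After centring by span Zfp521 was no longer past 1.5 times, while Fabp4 was. Fabp4 was the lower one at 83.3 CPM against 149.0, with 302.0 in bCAPs and 24.8 in bAPC 5. Pparg did not follow Fabp4, since it was at 66.4 CPM in bAPC 1 against 53.4 in the others, with 92.8 in bCAPs and 12.4 in bAPC 5. The 6 markers of mature fat cells came to 2.26 CPM. The label of early preadipocytes thus met 9 of 14 listed precursor genes above the floor, Fabp4 low and Pparg at an intermediate level.

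Of 16 brown fat genes 5 passed 10 CPM, all with ratios above 0. Lhx8, a brown fat transcription factor, was 1.94 times higher, at 39.9 CPM in bAPC 1, 38.1 in bAPC 3, 21.9 in bAPC 2, 20.7 in bCAPs, 17.2 in bFAPLs, 16.1 in bAPC 4 and 5.88 in bAPC 5. bAPC 1 and bAPC 3 did not differ beyond counting error. Tbx15 was at 155.7 against 112.9 CPM, and Zic1, En1 and Esrrg had log2 ratios between 0.15 and 0.40. The thermogenic genes of the list, such as Ucp1, were under the floor in bAPC 1.

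Genes of TGF-beta and BMP signalling split in both directions, with 5 of 24 higher and 5 lower (median 0.13). Of all genes 2.32% were higher and 1.53% lower. Grem1, a secreted inhibitor of BMPs, was higher (log2 0.84), while the BMP ligands Bmp4 (1.02 CPM against 16.1, log2 -3.98) and Bmp5 (3.45 against 11.6, -1.75) were lower. The Bmp4 value rests on 18 UMIs in bAPC 1. Bmp4 was lowest there, but its high levels were those of bFAPLs (43.6 CPM), bCAPs (21.0) and bAPC 5 (20.1), with only 2.89 for bAPC 2. Bmp5 did not set bAPC 1 apart, since bAPC 4 had less (1.07 CPM) and the interval of bAPC 2 (2.02 to 4.03) overlapped that of bAPC 1 (2.64 to 4.43). Its high levels were those of bCAPs (21.1), bAPC 5 (19.2) and bFAPLs (19.1), followed by bAPC 3 (10.3). The receptor Tgfbr3 (0.81) and the signal transducer Smad3 (0.63) were higher, as was Tgfbi (0.60), whereas Inhba and its inhibitor Fst were lower. Among 25 matrix genes, Col5a3 was higher and Thbs1 lower, and the median was 0.05. Ror2 was the only WNT gene of 12 past the limit (0.66), but after centring by span none was higher and 3 were lower (Rspo2, Sfrp1 and Ror1), so no direction can be given for the list. After the same centring 1 gene of the TGF-beta and BMP list was higher (Grem1) and 5 were lower (median -0.03). Pdgfa and Fgf2 were the 2 lower genes of 16 in the IGF and PDGF list, Fgf2 alone after centring, and none was higher. None of 17 immediate early genes passed 1.5 times in either direction.

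Of 9 known marker genes of the other brown clusters, 3 were lower in bAPC 1 and 1, Lrrc15, was higher (1.53% and 2.32% of all genes). Lrrc15, a leucine-rich membrane protein and the marker of bAPC 2, was at 24.7 CPM (22.5 to 27.2) in bAPC 1, 26.4 in bAPC 4, 20.8 (18.3 to 23.6) in bAPC 2 and 18.5 in bAPC 3. In this part of the labelled cells it therefore did not tell bAPC 2 from bAPC 1. Serpinb1a, Cryab and Fabp4 were lower, and the mitotic genes Cdca3 and Kif20a had ratios of -0.46 and -0.42.

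Cell cycle phase and sex differed little from the other precursors. By scored phase, 67.5% of its cells were in G1 (63.5 to 71.3), 16.7% in S and 15.8% in G2/M, against 65.5%, 15.8% and 18.7% in the other precursors. None of 34 S phase genes and 1 of 51 G2/M genes, Cdc20, was past 1.5 times. Of 566 cells with UMIs from Xist or Y genes but not both, 13.1% were called male (10.4 to 16.1), against 14.5% in the others. The 15 leading higher genes, chosen in these same cells, were all past 1.5 times in the G1, female and male cells taken alone, 14 of them in S cells and 13 in G2/M cells. The exceptions were Cdkn1c in S cells (log2 0.21, -0.03 to 0.45) and Maf (0.42) and Chst11 (0.53) in G2/M cells. Of the 15 leading lower genes, Sorbs2 in S cells (-0.40) and Abi3bp in G2/M cells (-0.37) were not past 1.5 times. In the 74 male cells, the smallest of these sets, the medians were 1.03 and -1.18. Glial, myeloid, myogenic, endothelial and epithelial markers had no member at 10 CPM, with sums of 2.32, 11.0, 1.64, 2.32 and 0.170 CPM in bAPC 1. The myeloid list, with Lyz2 its most abundant gene, was at 12.3 CPM in the other precursors.

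Variation between the cells of bAPC 1 was measured as the ratio of variance to mean, which tends to be larger for abundant genes. With each cell at 10000 UMIs, it was 25.9 for Ptn, the growth factor pleiotrophin, 23.4 for the nuclear RNA Malat1, 11.3 for the chemokine Ccl2, 10.8 for Acta2, 9.43 for Spp1, osteopontin, and 8.97 for Dlk1, with a median of 1.13 over 3476 genes. Ptn was also 1.75 times higher in the cluster, at 3538 CPM, with bAPC 5 at 3778 and bFAPLs at 486.1. Tmsb4x, Cemip, H19, Actb, Pcdh9, Mgp, Apoe, Tagln and Cst3 followed with 8.65 to 6.73. Acta2, Actb and Tagln were thus among the 15 genes with the largest ratios, but Acta2 had larger ones in bAPC 2 (17.8) and bCAPs (15.2). Pcdh9, a protocadherin, was the reverse, with 7.03 in bAPC 1, 2.48 in bAPC 2 and 4.17 in bCAPs.

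The higher genes of bAPC 1 were longer than genes at large, a property looked at after the ratios had been seen. The genomic span, from the first to the last base of a gene in GENCODE M21, had a median of 197.1 kb in the 209 higher genes, 14.8 kb in the 138 lower genes and 28.2 kb in all genes. Of 303 genes of 300 kb or more 25.1% were higher in bAPC 1, against 0.620% of 1934 genes under 10 kb. Other clusters were each compared with the rest. Of genes of 300 kb or more, 19.6% were higher in bAPC 5, 18.6% in bCAPs, 15.96% in bAPC 4, 9.18% in bFAPLs, 1.69% in bAPC 3 and 0% in bAPC 2. The shares lower in this class were 2.31% in bAPC 1, 8.47% in bAPC 4 and in bCAPs, 10.6% in bAPC 5 and 15.1% in bFAPLs. They were 26.7% in bAPC 3 and 81.2% in bAPC 2, so bAPC 1 had the smallest lower share of the 7 clusters. The median log2 ratio went by class of span from -0.11 under 10 kb to -0.01, 0.14, 0.26 and 0.39 at 300 kb or more. In bAPC 2, compared in the same way with all other precursors, it went from 0.15 to -0.81. Span and log2 ratio had a Spearman correlation of 0.54 in bAPC 1 and -0.72 in bAPC 2 across genes, which share libraries and are not independent. Cell Ranger 7 counts intronic reads by default, so long genes can gain UMIs from unspliced RNA.

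Per cell, genes of 100 kb or more gave 12.1% of the UMIs in bAPC 1 at the median (5th to 95th percentile 9.38 to 16.3). The share was 12.5% in bAPC 4, 12.0% in bCAPs, 11.5% in bFAPLs, 11.2% in bAPC 5, 9.88% in bAPC 3 and 8.11% in bAPC 2, where not a single cell reached the median of bAPC 1. bAPC 1 was therefore level with bAPC 4 and bCAPs, while bAPC 2 and, less so, bAPC 3 were low. Nuclear-retained RNAs were low in the same clusters, and all 7 above the floor had ratios above 0 in bAPC 1 (median 0.44). Malat1 was at a median of 7469 CPM per cell in bAPC 1, 3191 in bAPC 2 and 2715 in bAPC 3, and between 6122 and 7608 in the other 4 clusters. Whether nuclear or unspliced RNA sets these ratios was not tested. Without bAPC 2 among the comparison cells, 147 genes were higher and 209 lower, and with each ratio centred on the median of its class of span the split was 74 higher to 164 lower. Of the 209 higher genes 125 remained past 1.5 times without bAPC 2 and 64 after centring, while 133 and 116 of the 138 lower genes did. Sema3a kept log2 ratios of 1.57 and 1.17 and Nav3 1.103 and 0.83. Of the 15 leading genes, 15 stayed past 1.5 times without bAPC 2 and 13 after centring, all but Nrg1 and Pcsk5.

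**Figure D4:**
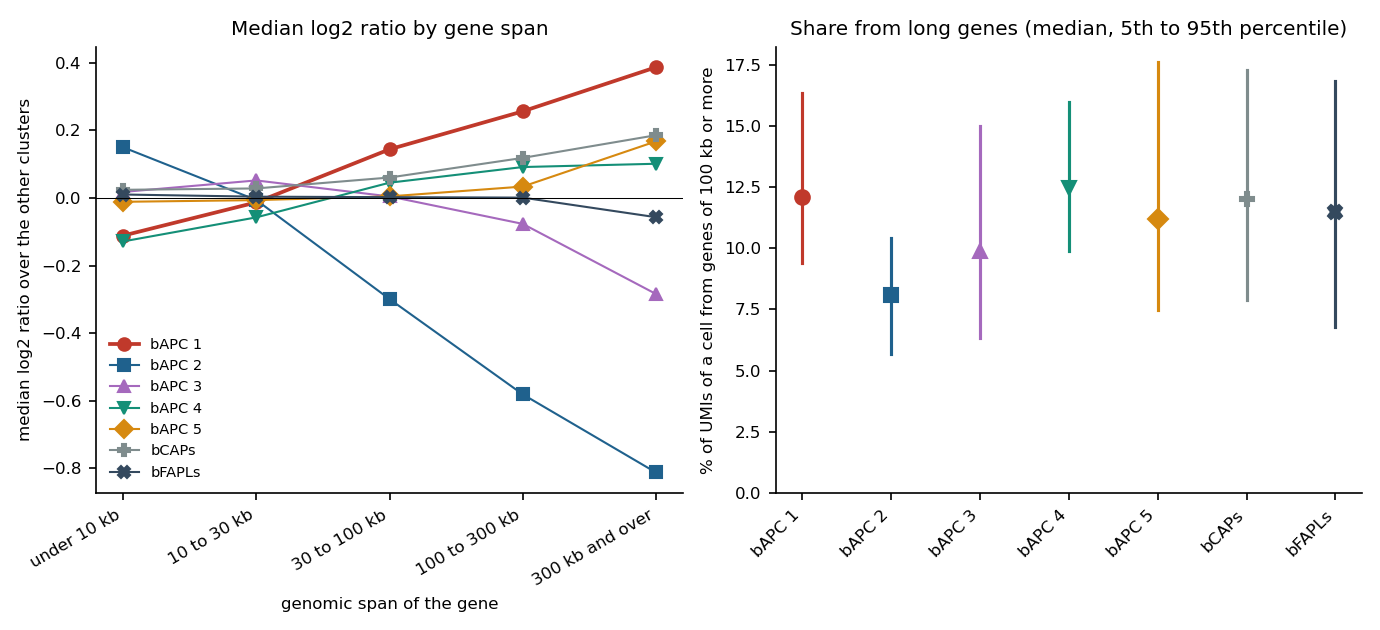
Left, median log2 ratio of genes (vertical axis) by genomic span in 5 classes (horizontal axis) for each brown cluster over the other 6, with bAPC 1 at 0.39 and bAPC 2 at -0.81 in the longest class. Right, share of a cell's UMIs from genes of 100 kb or more, as the median (symbol) with the 5th to 95th percentile (line) in each cluster, where bAPC 2 is lowest at 8.11%.

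Short genes were less often higher, with 28 of 4696 genes under 30 kb higher and 82 lower. The 10 highest of them at 50 CPM or more were Crabp1, Cdkn1c, Maf, Grem1, Spp1, the linker histone Hist1h1b, the metallothionein Mt2, the transcription factor Sox11, Dlk1 and Hoxc8, with log2 ratios from 0.96 to 0.60. Crabp1, 8.36 kb long, was at 178.8 CPM in bAPC 1 (172.6 to 185.2), between 117.2 and 133.7 in the other bAPC clusters, 71.8 in bCAPs and 14.6 in bFAPLs. Long genes were also found among the lower ones, such as Pde3a, Sorbs2, Pde1a and Abi3bp, each over 200 kb. The list of these genes was drawn up after their values were seen.

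Among the brown clusters, the summed profile of bAPC 1 was most like that of bAPC 4 (Spearman correlation across genes 0.970) and least like that of bAPC 2 (0.955). By the median size of the log2 ratio bAPC 4 was also nearest (0.160), with bCAPs (0.163) and bAPC 5 (0.165) close behind, and bAPC 2 was farthest (0.29). bAPC 3 came next to bAPC 4 by the correlation (0.969) and next to bAPC 2 by the median (0.20), so its place depends on the measure. Against bAPC 2, 1597 of 8959 genes were higher in bAPC 1 (17.8%) and 63 lower (0.703%). The shares higher and lower were 6.48% and 1.92% against bAPC 3, 5.22% and 3.5% against bAPC 4, 4.65% and 3.43% against bAPC 5, 4.01% and 4.34% against bCAPs and 4.93% and 4.86% against bFAPLs. The excess of higher over lower genes was largest against bAPC 2 and bAPC 3, the brown clusters with the smallest share of UMIs from long genes. On the level of single cells, of the 15 nearest labelled neighbours of a bAPC 1 cell, 75.5% were bAPC 1 and 9.0% bAPC 2 on average. Neighbours of bAPC 5 cells were bAPC 5 in 47.0% of cases, bAPC 1 in 29.2% and bAPC 2 in 11.6%. Among all labelled cells these clusters made up 5.75%, 29.1% and 20.8%. Since many neighbours come from a cell's own cluster, the shares for other clusters cannot be read directly against these. Neighbours of the other 5 clusters were bAPC 1 in 6.09% to 17.04% of cases.

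In the white library, the cluster with the same number was not the one whose genes were shared. Of the 209 genes higher in bAPC 1, 196 were measured in wAPC 2, and 66 of them were at least 1.5 times higher there than in the other white precursors and 6 lower (3.17% and 2.03% of all genes). In wCAPs 41 of 195 were higher and 14 lower (2.52% and 2.03% of all genes), whereas in wAPC 1 only 2 of 192 were higher and 65 lower (1.85% and 4.45% of all genes). In wAPC 4 there were 51 higher and 37 lower of 200 (5.75% and 8.08% of all genes), in wAPC 3 there were 1 and 46 of 192 (1.04% and 5.69%), and in wFAPLs 9 and 66 of 196 (4.24% and 2.89%). The median log2 ratios were 0.38 in wAPC 2, 0.32 in wCAPs, 0.03 in wAPC 4, -0.25 in wAPC 3, -0.37 in wFAPLs and -0.40 in wAPC 1. Of the 138 genes lower in bAPC 1, 84 of the 126 measured in wFAPLs were higher there and 3 lower, with a median of 0.84, and the median was below 0 in wAPC 2, wAPC 3, wAPC 4 and wCAPs. Genes of 100 kb or more gave 14.4% of the UMIs of a cell in wAPC 2 and 13.8% in wCAPs, the highest medians among the white clusters, against 12.0% in wAPC 1, and their part in the shared genes was not tested.

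**Figure D5:**
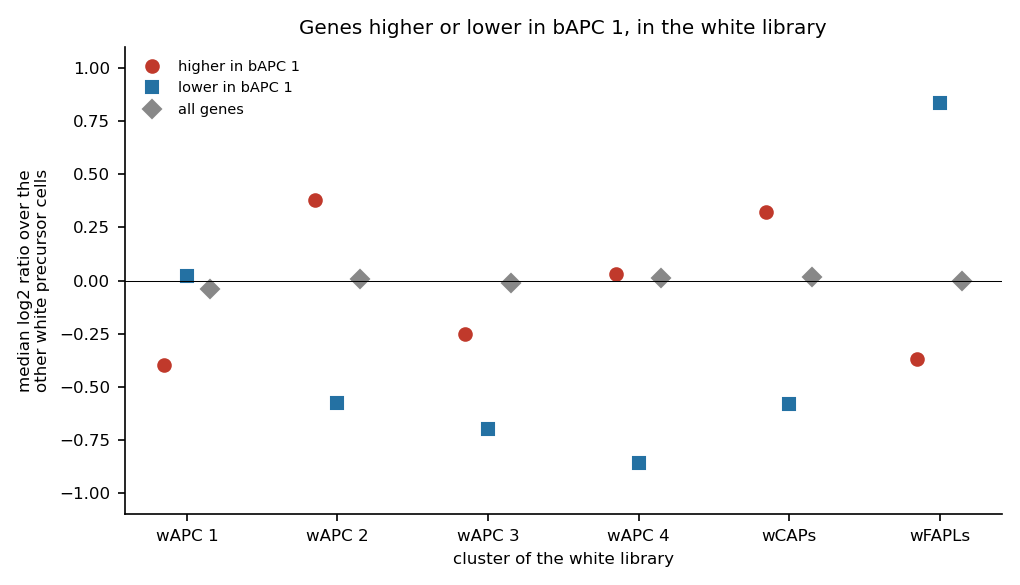
Median log2 ratio (vertical axis) in 6 clusters of the white library, each over the other white precursor cells, of the genes higher in bAPC 1 (red circles), lower in bAPC 1 (blue squares) and of all genes (grey diamonds). The red median is highest in wAPC 2 (0.38) and lowest in wAPC 1 (-0.40), and the blue median is highest in wFAPLs (0.84); the 15 differentiating wFAPLs are not drawn.

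Sema3a, Crabp1 and Cdkn1c were also higher in wAPC 2 than in wAPC 1. Sema3a was at 133.2 CPM in wAPC 2 and 61.2 in wCAPs, and wAPC 4 (48.3), wAPC 3 (45.4), wAPC 1 (29.4) and wFAPLs (9.07) followed. Crabp1 was at 153.7 CPM in wAPC 2 and 48.8 in wAPC 1, and Cdkn1c at 598.8 and 123.1. Nav3 departed from this order, with 245.1 CPM in wAPC 4, 234.4 in wCAPs, 153.3 in wAPC 2 and 78.4 in wAPC 1, and Tenm4 was highest in wCAPs at 86.8. Lhx8, at 39.9 CPM in bAPC 1, was between 1.93 and 17.9 CPM in the 6 white clusters drawn. By summed profile, bAPC 1 was closer to wCAPs (correlation 0.974) than to any brown cluster, but the libraries differ in depot and preparation at once, so these cannot be told apart.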

How the data were processed

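The authors made 1 library per depot with 10x Genomics 3' v3.1 chemistry and deposited Cell Ranger 7.0.1 matrices (mm10, GRCm38) of raw, not normalized UMI counts for 32285 genes in 7009 brown and 5261 white cells. Cluster labels came from the authors' source data, of which 1999 cells per depot were at hand. All 1999 brown ones were among the 6137 brown cells within the study's filter limits as applied here. This count differs from the one the paper gives after its filter. The libraries had 205551320 and 144451047 UMIs, with medians of 26411 and 26239 per cell. No doublet caller was used. UMIs were summed per cluster and scaled to CPM with Python 3.11.15, numpy 2.4.6, scipy 1.17.1, pandas 2.3.3, scikit-learn 1.9.0 and scanpy 1.11.5, and the procedures were tested on simulated data. A gene was counted at 10 CPM in either sum and 1.5 times. Named genes were the 15 highest and 15 lowest ratios at 50 CPM, the 15 most variable, the 10 farthest above the next cluster, markers and list members, without Y genes, Xist or unnamed models. The members and lists were chosen with earlier results of these data known. Labels carried over by 15 neighbours gave 90.5% of held-out bAPC 1 cells their label back, and 77.1% of calls were right. Alternatives were other cells, floors, folds, scalings and comparison cells. Some list members are counted but not reported by name here.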

Additional observations from a re-analysis of the deposited data

How the results depend on the processing

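Of 14 alternatives for each count of genes, 9 kept it within 1.5 times of 209 higher and 138 lower genes (147 to 301 and 112 to 174). The counts were 527 and 436 in male cells, 88 and 55 at a floor of 50 CPM, 2774 and 1486 without a floor and 21 and 39 at a fold of 2. The male cells are 74 of bAPC 1 and 198 others, and the counts without a floor include genes of few UMIs. The split was 147 higher and 209 lower without bAPC 2, and 74 higher with ratios centred within class of gene span, both chosen after seeing the data. More genes were thus lower than higher without bAPC 2, after span centring (164 lower) and at a fold of 2. The signs of Sema3a, Nav3 and the contractile median stayed the same under each alternative run. Sema3a (main log2 ratio 1.56) was at 1.71 without bAPC 3, 1.35 against the mean of the 6 clusters and 1.17 after span centring, and otherwise within its counting interval. Nav3 (1.22) was at 1.38 with labels carried over, 1.14 in thinned cells, 1.08 in G1 cells, 1.44 in male cells, 1.38 without bAPC 3, 0.98 against the mean of the 6 clusters, 1.103 without bAPC 2 and 0.83 after span centring. The contractile median (-0.42) was at -0.47 with ratios centred on the median gene and -0.33 after span centring, and 11 other alternatives gave -0.43 to -0.37. The cause of these shifts was not tested. No paired analysis was possible because each depot has 1 library. Clusters with few cells, such as bAPC 5, have wide counting intervals, and differences within those intervals were not detectable at this depth.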
